A study of Patiria miniata with 18 samples.

Results

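In the bat star *Patiria miniata*, a sea star, 5 loci were followed through larval regeneration: 2 loci named Plk2 (XLOC_045382 and XLOC_069076), 1 named Wee1_1 (XLOC_031351), 1 named Frk_1 (XLOC_025979) and 1 named Rbbp6L (XLOC_075119). They are 5 of the 80165 loci counted and of the 31798 that passed the filter on low counts, of which 14559 carry a gene name. They were chosen by their counts at 3 hours post bisection (hpb), high in both fragments against uncut larvae, among genes whose namesakes in other animals restrain or time cell division. Their values at 3 hpb, between fragments and controls and between the 2 fragments, and the later return toward the controls, are therefore given as a description without a test. No cell division was measured in these libraries, so "brake" is the description of the namesakes and not of the loci.

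Larvae of 7 days post fertilization were cut across the foregut into an anterior and a posterior fragment. Polyadenylated RNA was sequenced from pools of about 300 sibling fragments or uncut control larvae at 3 hpb (0 dpb in the labels) and after 3 and 6 days (dpb, days post bisection), with 2 biological replicates in each of the 9 groups and 18 libraries in all. Each fragment held only its part of the body, a pool averages all of its tissues, and the controls of a time point were siblings of the same age that had not been cut. In such bulk samples, a change in the number of cells that use a gene and a change in RNA per cell cannot be told apart.

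Entry into mitosis is timed by Cdk1 with cyclin B. Wee1 is the kinase that places the inhibitory phosphate on Cdk1, and Cdc25 phosphatases remove it. Plk2 is a polo-like kinase that acts in centriole duplication and that in mammals is transcribed after cell stress, in part through p53. Frk is a tyrosine kinase of the Src group described as a tumor suppressor in mammals, and mammalian Rbbp6 is a RING-type ubiquitin ligase that binds the Rb and p53 proteins. These roles were not tested in the bat star here.

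One of the 5 loci, Wee1_1 XLOC_031351, has a probe designed by the study for direct RNA counting. It is printed because it is the only sequence that the study designed for a locus of the group. The study assigned it to this locus, which lies on scaffold 2247. It is 100 bases long with a GC content of 51% and is printed 5′ to 3′ in lower case. The probe was not aligned here, so whether it also matches another Wee1_1 locus was not tested.
Wee1_1 probe: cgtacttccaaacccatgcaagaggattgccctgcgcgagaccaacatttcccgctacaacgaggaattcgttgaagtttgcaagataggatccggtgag

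On the P. miniata v1.0 assembly the Wee1 locus XLOC_031351 spans scaffold 2247, positions 56149 to 69541 on the plus strand, with 11 exon blocks over 2193 bases. The Plk2 locus XLOC_069076 spans scaffold 7410, positions 4046 to 27120 on the plus strand, with 14 exon blocks over 2261 bases. The other Plk2 locus, XLOC_045382, is of a different kind. It is a single block of 4511 bases without a strand on scaffold 376, positions 122938 to 127448, and starts 138 bases after the end of a 14-block locus also named Plk2 (XLOC_045367). The assembly's merging step gave it the code for a possible run-on fragment of that gene prediction, so its counts were read with those of XLOC_045367. The Frk locus XLOC_025979 spans scaffold 191, positions 111548 to 132110 on the plus strand, with 9 exon blocks over 8286 bases. The Rbbp6L locus XLOC_075119 spans scaffold 8765, positions 7734 to 17710 on the minus strand, with 4 exon blocks over 5932 bases.

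In total 11 loci carry these 4 names, and no member's exons overlap the exons of another locus. The Wee1 locus is followed after 111 bases by the fragment XLOC_031362, and a second multi-exon Wee1_1 locus, XLOC_045149, lies on scaffold 3731. The Plk2 locus XLOC_069076 is followed after 469 bases by XLOC_069080, Frk XLOC_025979 encloses XLOC_025986, and another Frk_1 locus, XLOC_020492, lies on scaffold 16548. Reads shared by copies on separate scaffolds would not map uniquely and would be left out, since only uniquely mapping reads were counted. How many such reads there were is not known.

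The libraries held 15868104 to 36152675 counts on loci (median 20631998), and no library was a copy of another. Among these 18 libraries a member held between 11 counts (Wee1, anterior 3 dpb) and 2161 counts (Rbbp6L, anterior 3 hpb). Of 15 posterior marker loci, 7 were called lower and 3 higher in anterior fragments at 3 hpb, the 3 all being named Nk1, and of 4 anterior marker loci 1 was called higher in anterior and 2 lower in posterior fragments. The posterior genes Nk1 (XLOC_068417, log2 fold change -3.28 ± 0.536), Frizz9/10 (-3.03 ± 0.533), Hox11/13b (-5.14 ± 0.940) and Wnt16 (-2.50 ± 0.508) fell in anterior fragments at 3 hpb, with adjusted p-values of 0.00438, 0.00670, 0.00828 and 0.0144 (edgeR, Benjamini-Hochberg). The anterior gene Frizz5/8 rose there (1.26 ± 0.334, edgeR adjusted p = 0.0444), and Rx fell in posterior fragments (-4.40 ± 0.572, edgeR adjusted p = 0.0236).

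At 3 hpb all 5 loci stood above the uncut controls in both fragments, and further above them in the anterior one. Levels are given as CPM, counts scaled to a fixed library size, after TMM, a correction for library composition. Wee1, the kinase that holds Cdk1 inactive, was at 4.67 and 0.627 CPM in control replicates 1 and 2, at 42.2 and 6.33 CPM in anterior fragments, and at 18.5 and 5.71 CPM in posterior fragments. Fragments lay above both controls, and replicate 1 was the higher of the pair in all 3 groups.

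The Plk2 locus XLOC_069076 was at 2.77 and 4.15 CPM in controls, 13.7 and 69.8 CPM in anterior fragments and 8.81 and 43.9 CPM in posterior fragments. The Plk2 locus XLOC_045382 was at 5.17 and 2.12 CPM in controls, 17.3 and 63.7 CPM in anterior fragments and 13.5 and 36.8 CPM in posterior fragments. In both polo-like kinase loci the fragments did not overlap the controls, and replicate 2 of each fragment was several times higher than replicate 1, the reverse of Wee1.

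Frk, the Src-related kinase, had the highest control level of the group and the smallest difference. It was at 51.3 and 48.9 CPM in controls, 109 and 132 CPM in anterior fragments and 91.4 and 111 CPM in posterior fragments, with replicates close to each other. Rbbp6L, named after the Rb-binding ubiquitin ligase, was at 28.2 and 25.5 CPM in controls, 138 and 84.8 CPM in anterior fragments and 85.5 and 56.1 CPM in posterior fragments. Here replicate 1 was the higher one in each group, and again no fragment library reached down to a control library.

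**Figure D1:**
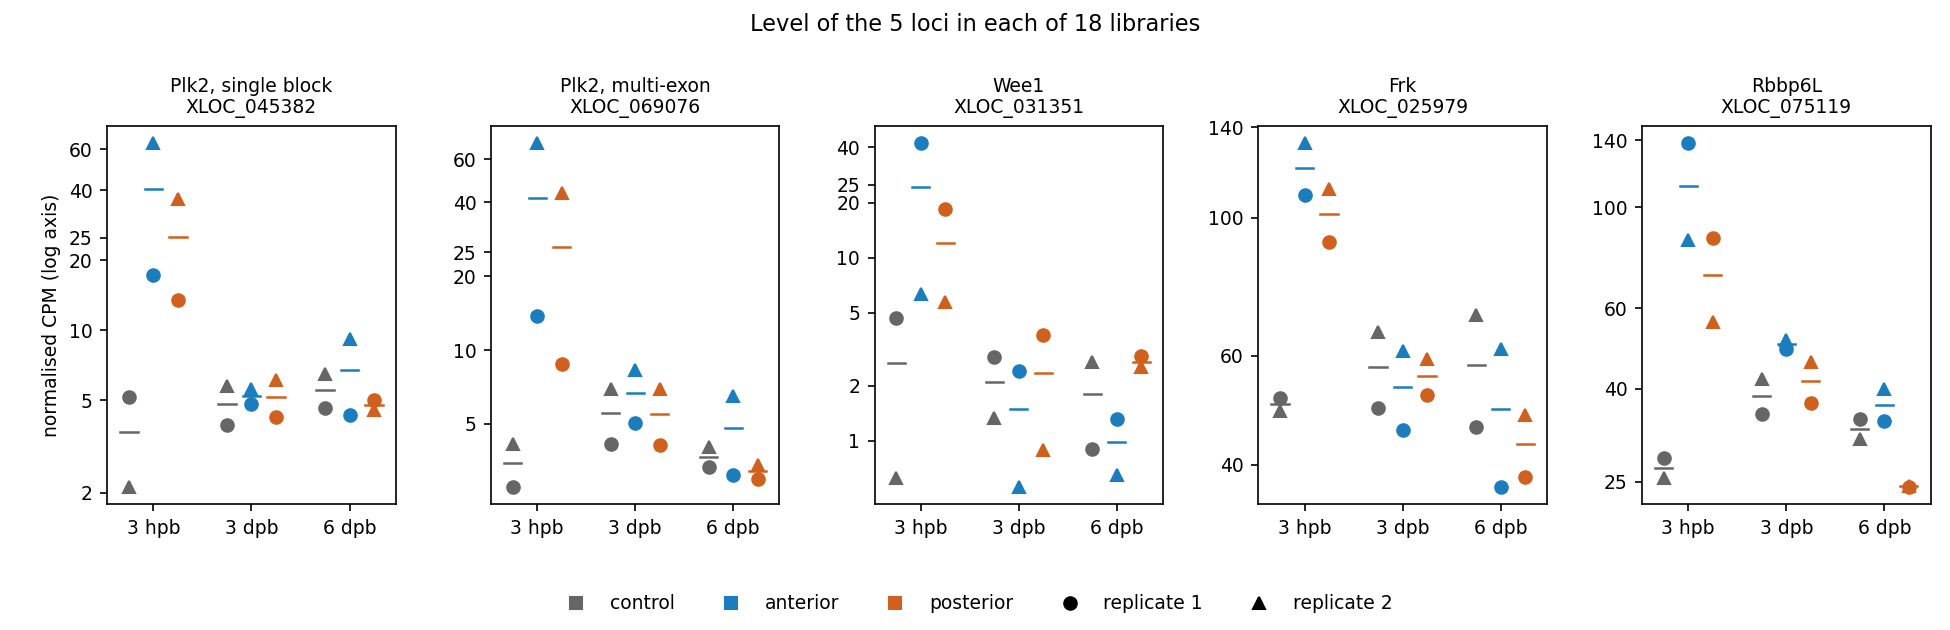
Normalised CPM (log axis, own range for each locus) of the 5 loci in each of the 18 libraries, by time after bisection, with colours for control, anterior and posterior samples, circles for replicate 1, triangles for replicate 2 and a bar at the mean of the 2 libraries. At 3 hpb every fragment library lies above both controls of its time point, and for each locus above all 12 libraries of 3 and 6 dpb.

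Given per length, Frk and Rbbp6L were the most abundant of the 5 in controls at 3 hpb, and the order changed in the anterior fragments. Mean control levels in CPM per kilobase of exon were 6.04 for Frk, 4.52 for Rbbp6L, 1.53 for Plk2 XLOC_069076, 1.21 for Wee1 and 0.808 for Plk2 XLOC_045382 (n = 2). In anterior fragments the levels were 18.8 for Rbbp6L, 18.5 for Plk2 XLOC_069076, 14.5 for Frk, 11.1 for Wee1 and 8.98 for Plk2 XLOC_045382 CPM per kilobase (n = 2). The replicates of the Plk2 and Wee1 loci were too far apart to order these 5 levels in anterior fragments, with SDs of 17.5, 11.6 and 7.27 CPM per kilobase for XLOC_069076, Wee1 and XLOC_045382.

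As log2 fold changes of anterior fragments over controls at 3 hpb, the values were 3.34 ± 0.556 (SE) for Plk2 XLOC_069076, 3.22 ± 0.622 for Plk2 XLOC_045382, 3.18 ± 0.853 for Wee1, 2.05 ± 0.293 for Rbbp6L and 1.25 ± 0.232 for Frk. In posterior fragments, set against the same controls, they were 2.68 ± 0.544, 2.57 ± 0.606, 2.37 ± 0.834, 1.39 ± 0.287 and 1.00 ± 0.231 in the same order. Both Plk2 loci and Wee1 thus stood about alike and Frk lowest in each fragment. The member medians were 3.18 and 2.37, beside medians of -0.01 and -0.03 over all 31798 loci.

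Among all loci, the anterior values of Plk2 XLOC_069076, Plk2 XLOC_045382 and Wee1 ranked 31, 36 and 39 from the top, and those of Rbbp6L and Frk 455 and 2294. Groups that did not overlap, with fragments higher, were found for 17.4% of all loci in anterior and 14.2% in posterior fragments, and for 5 of 5 members in both. At an adjusted p under 0.05 the background was 7.07% of loci in anterior and 0.066% in posterior fragments. Since these values chose the members, nothing is read from the counts. Every member had a control-to-fragment difference near or above the 2-fold change of the study's criterion, Frk in posterior fragments being the nearest to it with a fold of 1.99.

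The size of the difference depended on single libraries for both Plk2 loci and Wee1. In anterior fragments Plk2 XLOC_045382 was at 4.45 without control replicate 1, 2.41 without control replicate 2, 3.86 without anterior replicate 1 and 2.37 without anterior replicate 2. Plk2 XLOC_069076 was at 3.95 without anterior replicate 1 and 2.43 without anterior replicate 2, and Wee1 at 4.29 without control replicate 1 and 2.21 without anterior replicate 1. In posterior fragments Plk2 XLOC_045382 was at 3.81 and 1.77 without control replicate 1 and 2, Plk2 XLOC_069076 at 3.28 and 1.79 without posterior replicate 1 and 2, and Wee1 at 3.45 and 1.77 without control replicate 1 and 2. Frk and Rbbp6L moved by less than 1.5-fold whichever library was left out, from 1.02 to 1.50 and from 1.66 to 2.36 in anterior fragments. Scaling by library size alone lowered the anterior values to between 0.84 for Frk and 2.90 for Plk2 XLOC_069076, while the median of all loci moved to -0.44.

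Within each anterior replicate, the ratios of fragment to control levels lay far apart for the Plk2 loci but not for Wee1. In posterior fragments the ratios of Wee1 were 3.95 and 9.11 in replicates 1 and 2. Wee1 was 9.02-fold and 10.1-fold above its control in anterior replicates 1 and 2 although its levels differed 6.66-fold between those libraries, the controls differing 7.46-fold in the same direction. Plk2 XLOC_069076 was 4.96-fold above its control in anterior replicate 1 and 16.8-fold in replicate 2. Plk2 XLOC_045382 was 3.35-fold above in replicate 1 and 30.0-fold in replicate 2, where its control was the lowest of the 18 libraries. The ratios of Frk were 2.12 and 2.70 and those of Rbbp6L 4.89 and 3.33, so these 2 loci were close between replicates.

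The other loci of these names also stood above the control of the same replicate at 3 hpb, in both replicates of both fragments. They share the rule's contrast, so they too are described without a test. At Wee1_1 XLOC_031362 the groups overlapped, with fragment replicate 2 at 2.86 (anterior) and 2.13 CPM (posterior), below control replicate 1 at 4.37 CPM. The multi-exon Plk2 locus XLOC_045367, which ends just before XLOC_045382, was at 4.18 and 3.52 CPM in controls and 14.7 and 67.6 CPM in anterior fragments at 3 hpb. The second Wee1 locus, XLOC_045149, was at 8.67 and 2.51 CPM in controls and 78.7 and 15.4 CPM in anterior fragments. Replicate 2 was thus the higher anterior library at both multi-exon Plk2 loci, and replicate 1 at both multi-exon Wee1 loci. Log2 fold changes at 3 hpb over the 6 further loci ran from 1.24 (Frk_1 XLOC_025986) to 3.16 (Plk2 XLOC_069080) in anterior fragments. When the counts of all loci of 1 gene prediction were summed, the anterior values were 3.13 for the prediction of Plk2 XLOC_045382, 3.27 for that of XLOC_069076, 3.00 for Wee1, 1.24 for Frk and 2.05 for Rbbp6L.

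**Figure D2:**
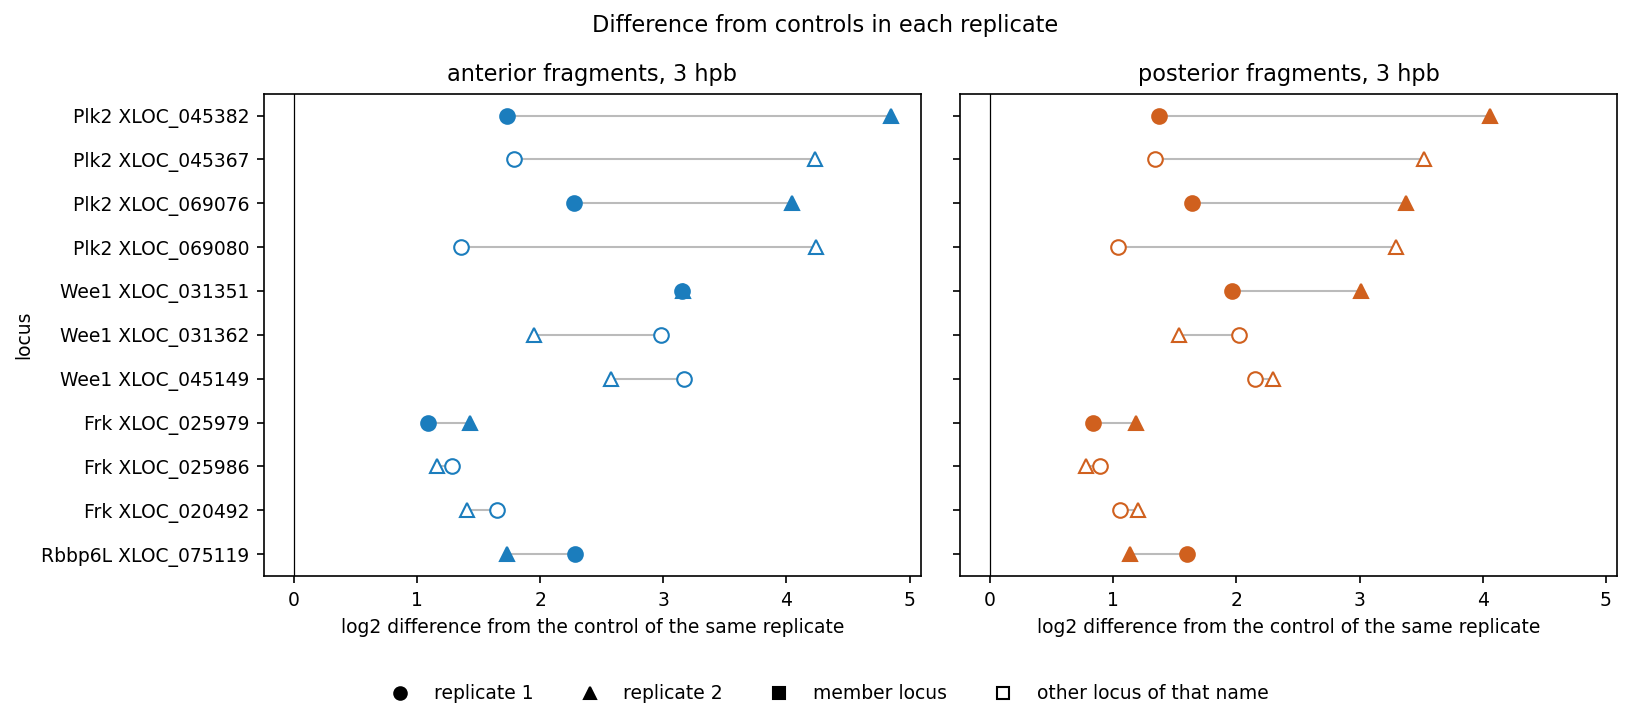
Log2 difference of each fragment from the control of the same replicate number at 3 hpb (log2 CPM with a prior count of 2) for the 5 loci (filled) and the 6 other loci with their names (open), circles for replicate 1 and triangles for replicate 2. All points lie above 0, and the Plk2 loci have the widest gap between replicates in both fragments.

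By 3 dpb the fragments' levels of the 5 loci were near those of the controls, with Rbbp6L in anterior fragments still above both of them. Over the 12 libraries of 3 and 6 dpb, Wee1 ranged from 0.562 to 3.80 CPM with a median of 1.88, while its lowest fragment library at 3 hpb was at 5.71 CPM. The late highs were 9.20 CPM for Plk2 XLOC_045382, 8.27 CPM for Plk2 XLOC_069076, 69.7 CPM for Frk and 51.2 CPM for Rbbp6L. For each of the 5 loci, the lowest fragment library at 3 hpb (13.5, 8.81, 91.4 and 56.1 CPM in that order) lay above every later library, the narrowest margin being that of Plk2 XLOC_069076.

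The log2 differences between 3 dpb and 3 hpb in anterior fragments were -3.88 ± 0.889 for Wee1, -2.82 ± 0.601 for Plk2 XLOC_045382, -2.41 ± 0.531 for Plk2 XLOC_069076, -1.18 ± 0.232 for Frk and -1.14 ± 0.285 for Rbbp6L. In posterior fragments they ran from -0.76 ± 0.284 for Rbbp6L to -2.20 ± 0.587 for Plk2 XLOC_045382 and -2.41 ± 0.838 for Wee1. The uncut controls had differences between -0.04 ± 0.846 for Wee1 and 0.66 ± 0.520 for Plk2 XLOC_069076 over the same 3 days. The return toward low levels was thus seen in the fragments and not in the uncut larvae, as a description, since the 3 hpb values chose the loci.

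The comparisons that the choice of the loci did not use were fragments against controls at 3 and 6 dpb, anterior against posterior fragments at those times, and 6 dpb against 3 dpb within each kind of sample. These are 9 comparisons and 45 tests of the 5 loci. None passed an adjusted p of 0.05 with edgeR's quasi-likelihood test, 1 had an unadjusted p under 0.05, and DESeq2 called 0. In simulated data for the anterior comparison at 3 dpb, an unadjusted p under 0.05 found 45% of loci changed 2-fold and 96% of those changed 4-fold, and an adjusted p found 4% and 30%. In that simulation a 2-fold change was thus usually not called. Only 100 loci were changed at each fold, of 30995 tested, while 718 loci were called in the real comparison. Fewer changed loci make the adjusted p stricter, and loci of low mean count were not drawn. These shares are therefore not those of each member or of the other comparisons.

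At 3 dpb the anterior fragments were at 2.42 and 0.562 CPM of Wee1 against 2.87 and 1.34 CPM in controls, a log2 fold change of -0.66 ± 0.844. Rbbp6L was at 48.9 and 51.2 CPM in anterior fragments against 35.2 and 41.9 CPM in controls, the only member whose groups did not overlap (0.37 ± 0.282). Fragments were higher without overlap for 8.65% of all loci, and 2.26% were called in that comparison. The Plk2 loci XLOC_045382 (0.14 ± 0.569) and XLOC_069076 (0.27 ± 0.509) and Frk (-0.11 ± 0.229) overlapped the controls, and all 5 adjusted p-values were 1 with edgeR.

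Posterior fragments at 3 dpb differed from the same controls by 0.11 ± 0.282 or less on the log2 scale for each of the 5 loci, with 5 of 5 overlapping and edgeR adjusted p-values of 1. In that comparison 0.00% of all loci were called. Wee1 was at 3.80 and 0.896 CPM there, a pair of libraries that enclosed both controls.

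At 6 dpb Wee1 was at 1.31 and 0.654 CPM in anterior fragments, 0.901 and 2.71 CPM in controls and 2.89 and 2.53 CPM in posterior fragments. Its log2 fold change was -1.28 ± 0.892 in anterior and 0.36 ± 0.840 in posterior fragments against these shared controls (edgeR adjusted p = 1 for both). The counts behind these values were 13 to 97 reads a library, so only a large difference could have been seen. Rbbp6L was at 24.4 and 24.5 CPM in posterior fragments against 34.3 and 31.0 CPM in controls, both below (-0.42 ± 0.282, edgeR adjusted p = 0.811), while 13.9% of all loci were lower without overlap and 0.00629% were called.

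Frk at 6 dpb was at 38.3 and 48.2 CPM in posterior fragments and 46.1 and 69.7 CPM in controls, with overlap (-0.41 ± 0.229, edgeR adjusted p = 0.702). In anterior fragments Frk (-0.25 ± 0.229), Rbbp6L (0.18 ± 0.282) and the Plk2 loci XLOC_045382 (0.22 ± 0.565) and XLOC_069076 (0.24 ± 0.513) overlapped the controls with edgeR adjusted p-values of 1, in a comparison with 2.19% of loci called. In posterior fragments the Plk2 loci XLOC_045382 (-0.16 ± 0.566) and XLOC_069076 (-0.20 ± 0.514) overlapped them too. The 5 loci thus had no called difference from uncut larvae at 3 or 6 dpb, while their standard errors left room for differences near 2-fold at the Plk2 loci and more at Wee1. These standard errors come from 1 replicate block over all times, which leaves out pairing within a time point. The common dispersion was 0.146 in that fit and 0.0475 with a block nested in time points.

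**Figure D3:**
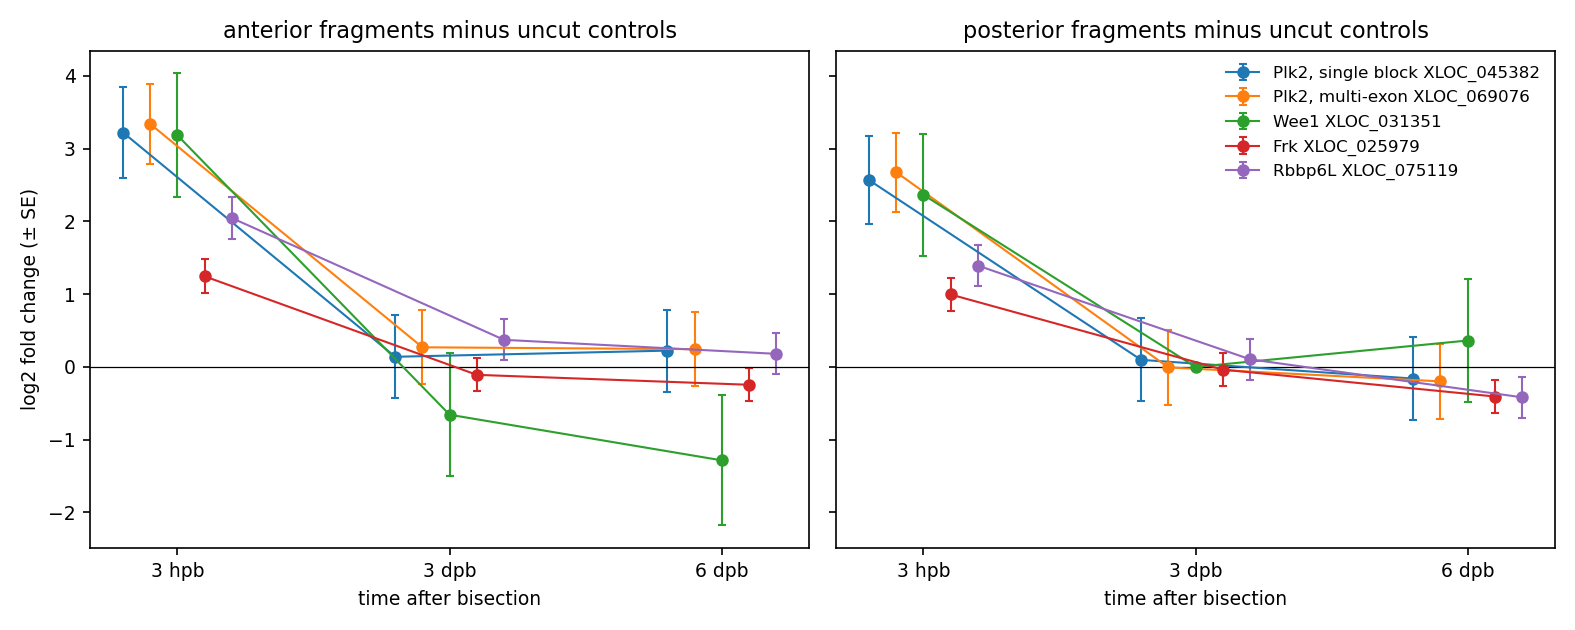
Log2 fold change of fragments over their uncut controls (points, bars 1 SE, no bar where it is not defined) at 3 hpb, 3 dpb and 6 dpb for anterior fragments (left) and posterior fragments (right). The 5 loci run from 1.25 to 3.34 at 3 hpb in anterior fragments and from 1.00 to 2.68 in posterior ones, and lie between -1.28 and 0.37 later.

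Anterior fragments exceeded posterior fragments at 3 hpb for every member in both replicates, as 41.4% of all loci did. These libraries chose the members, so this too is a description without a test. The log2 differences were 0.82 ± 0.784 for Wee1, 0.66 ± 0.500 for Plk2 XLOC_069076, 0.65 ± 0.557 for Plk2 XLOC_045382, 0.65 ± 0.282 for Rbbp6L and 0.25 ± 0.229 for Frk. The 2 groups overlapped for 5 of 5 members, replicates lying further apart than fragments, and 5.29% of all loci were called.

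At 3 dpb the differences between fragments were between -0.66 ± 0.846 (Wee1) and 0.28 ± 0.511 (Plk2 XLOC_069076), each with an edgeR adjusted p of 1, while 3.59% of all loci were called. Rbbp6L was the only member without overlap (0.27 ± 0.282), higher in anterior fragments as 12.2% of all loci were. At 6 dpb Wee1 was lower in anterior fragments in both libraries (-1.65 ± 0.862, edgeR adjusted p = 0.459) and Rbbp6L higher in both (0.60 ± 0.283, edgeR adjusted p = 0.381). Differences without overlap were found for 16.0% of loci in the higher and 18.1% in the lower direction there, and 4.33% were called. The 2 loci thus stood on opposite sides in these 4 libraries without a call.

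From 3 to 6 dpb Rbbp6L in posterior fragments went from 37.2 and 45.8 CPM to 24.4 and 24.5 CPM. The later libraries lay below the earlier ones, with a log2 difference of -0.77 ± 0.284 and an edgeR adjusted p of 0.423 (0.0193 unadjusted). Later libraries were lower without overlap for 13.1% of all loci, and 9.37% had an unadjusted p under 0.05. Rbbp6L was also lower without overlap in anterior fragments (-0.44 ± 0.282) and in uncut controls (-0.25 ± 0.282), as 9.43% and 9.64% of all loci were. Plk2 XLOC_069076 differed by -0.69 ± 0.516 in posterior fragments, -0.53 ± 0.511 in anterior fragments and -0.50 ± 0.512 in uncut controls. Plk2 XLOC_045382 was at -0.05 ± 0.569, 0.30 ± 0.568 and 0.21 ± 0.566. Wee1 differed by 0.56 ± 0.827, -0.43 ± 0.877 and 0.19 ± 0.850 and Frk by -0.37 ± 0.229 and -0.14 ± 0.229 in the fragments and by -0.00080 in controls. The later libraries of Plk2 XLOC_069076 in posterior fragments and controls, and of Frk in posterior fragments, were also lower without overlap. The share of all loci called was 0.120% in posterior fragments, 0.182% in anterior fragments and 0.0598% in controls.

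Around these 5 loci, 73 other tested loci with 41 gene names belong to 5 lists of related functions: the G2/M switch and its checkpoint (22 loci), G1/S with the Rb and p53 genes (29), polo and aurora kinases with the spindle checkpoint (10), Src family kinases and their regulators (8) and 1 further tumor suppressor gene (4). The paper named the last gene beside the members as activated early in these same data, so its 3 hpb values follow from that choice. It holds 3 of the 4 higher loci in anterior and 1 of the 2 in posterior fragments counted below at an unadjusted edgeR p under 0.05. The values of the 73 loci at 3 hpb lay on both sides of 0, with medians over all 73 below it. In anterior fragments 0 of the 73 were called higher and 1 lower, with 4 higher and 6 lower at an unadjusted p under 0.05, which 24.5% of all loci passed, and a median of -0.14. The locus called lower was Rbbp5 (XLOC_026363), which in mammals belongs to a histone methyltransferase complex, at -0.99 ± 0.256 with an edgeR adjusted p of 0.0405. In posterior fragments 0 were called in either direction by edgeR, with 2 higher and 6 lower at an unadjusted p under 0.05, which 11.0% of all loci passed, and a median of -0.26. DESeq2 called 2 higher and 3 lower in anterior and 0 and 2 in posterior fragments, and edgeR with a replicate block nested in time points called 7 and 5, and 1 and 5, in fits that called 8560 and 1363 of all loci. Without any block, edgeR called 0 in both, so the call of Rbbp5 was lost. An edgeR fit per time point called 4 higher and 0 lower of 64 loci in anterior fragments, so that call was lost there too. Scaling by library size alone gave 0 higher and 4 lower in anterior fragments. In posterior fragments these 2 alternatives called 0.

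That the lists around the members had medians below them at 3 hpb follows from the choice of the members, and nothing is read from it. The G2/M list, to which Wee1 belongs, had medians of -0.25 in anterior and -0.26 in posterior fragments, and its highest anterior value was 1.44. The partners that oppose or receive the action of Wee1 are given for their role, outside the naming rule. Cdc25 (XLOC_023165) was at 0.62 ± 0.514 and -0.29 ± 0.522, and Cdk1 (XLOC_040695) at 0.03 ± 0.513 and -0.31 ± 0.514, with edgeR adjusted p-values of 0.503 and 0.907 for the former and 0.979 and 0.897 for the latter.

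The polo and aurora list had medians of -0.04 and -0.36 and the list of G1/S, Rb and p53 genes -0.48 and -0.41. The Src list of Frk had medians of 0.20 and 0.04 with a highest anterior value of 1.05, and the 4 loci of the further tumor suppressor gene 1.65 and 1.19. The last list was the only one of the 5 with medians above 1. Its gene was named by the paper for an early rise in these same data, so nothing is read from these medians.

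At 6 dpb in posterior fragments the medians of these lists, except the Src list, lay above 0 while 4 of the 5 members lay below it. The medians were 1.51 for the polo and aurora list, 0.72 for the G2/M list and 0.42 for the G1/S list, beside 0.01 over all loci. The further tumor suppressor gene had a median of 0.27, and the Src list of Frk had -0.38. By edgeR 0 of the 73 loci were called there, 18 were higher and 0 lower at an unadjusted p under 0.05, beside 9.09% of all loci in either direction, and DESeq2 called 1 higher. With the replicate block nested in time points, edgeR called 6 higher and 1 lower, and 1399 of all loci. In the same libraries Wee1 was at 0.36, Plk2 XLOC_045382 at -0.16, Plk2 XLOC_069076 at -0.20, Frk at -0.41 and Rbbp6L at -0.42. Cdk1 (XLOC_040695) was at 1.55 ± 0.532 with an edgeR adjusted p of 0.353. In anterior fragments at 6 dpb the median of the 73 loci was 0.05, with 0 called by edgeR and by DESeq2 and 1 higher at an unadjusted p under 0.05.

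**Figure D4:**
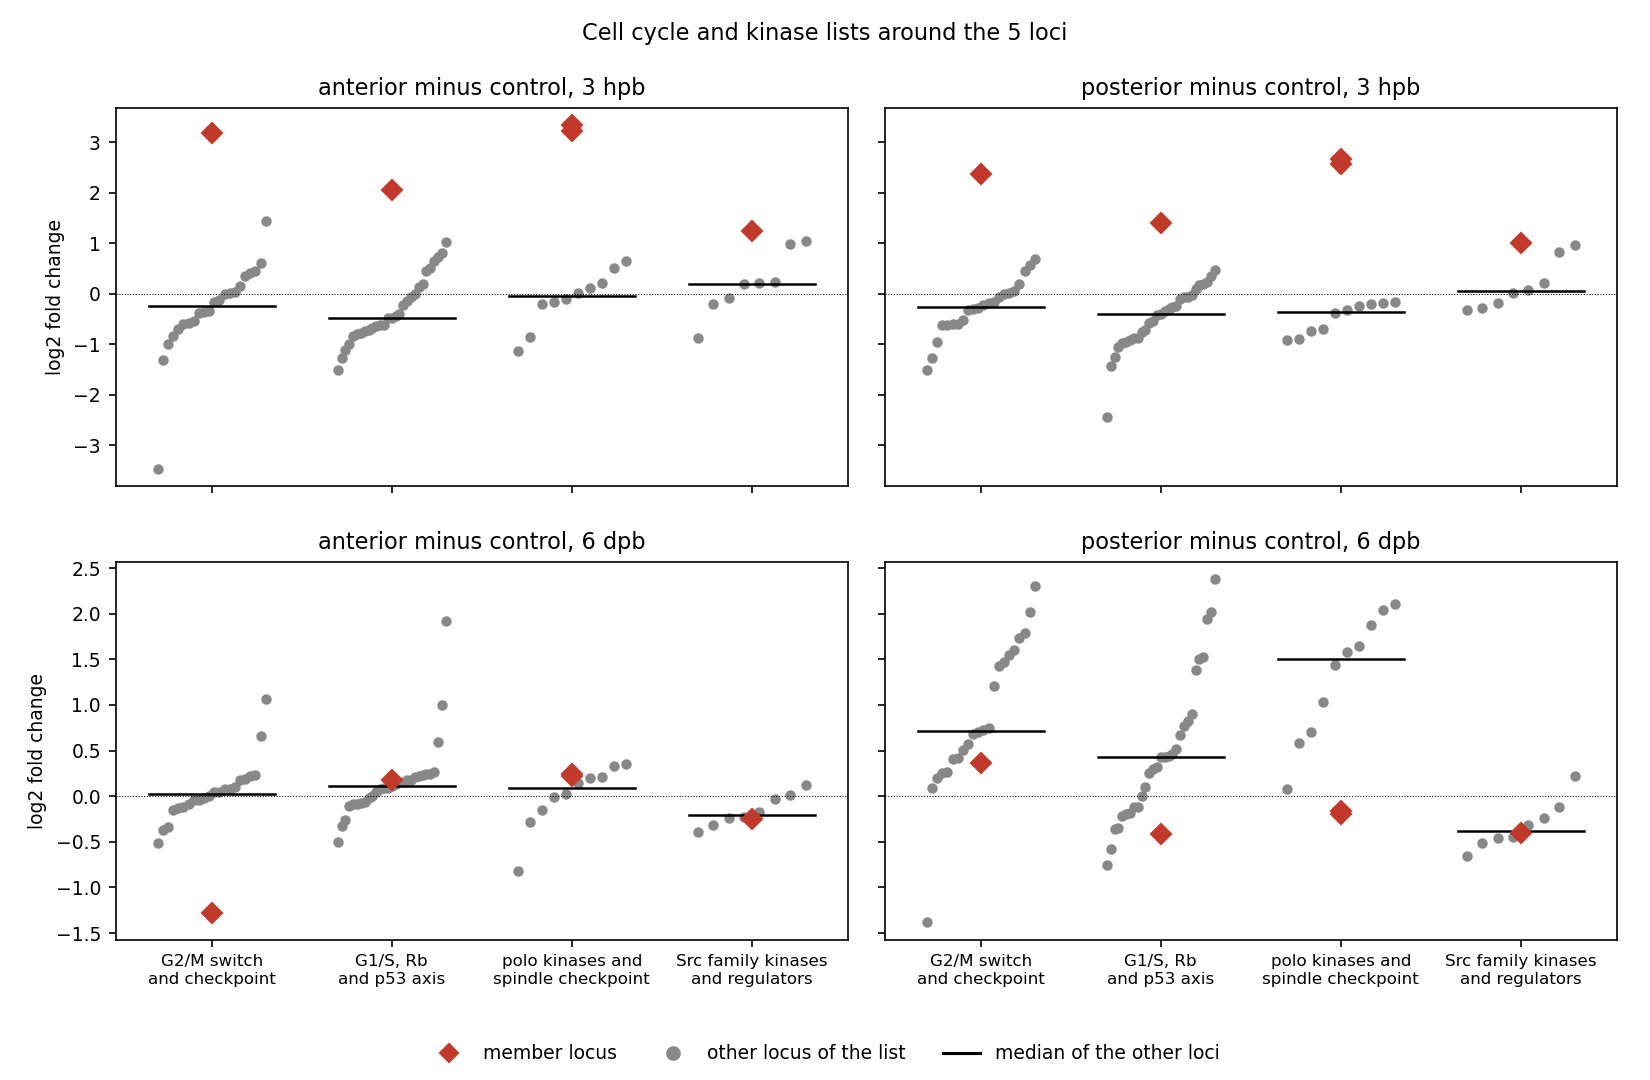
Log2 fold change against uncut controls at 3 hpb (top) and 6 dpb (bottom) for the members (diamonds) and the other loci (points, sorted by value) of the lists they belong to, with a line at the median of the other loci. At 3 hpb the members lie at the top of their lists because those values chose them, and in posterior fragments at 6 dpb Rbbp6L and the Plk2 loci lie below the medians of 0.42 and 1.51.

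Across the 18 libraries the 2 Plk2 loci varied together with a Pearson r of 0.924, and each with Frk at 0.894 and 0.895. Rbbp6L had r of 0.733 and 0.729 with the Plk2 loci and 0.806 with Frk. Wee1 stood apart from the other 4, with r from 0.393 to 0.648, and over the 9 group means its r was between 0.758 and 0.909. These are descriptions over libraries that share the 3 hpb difference and the replicate number, and no p is given.

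The named loci nearest to each member by this measure were in part their own namesakes. For Plk2 XLOC_045382 they were Plk2 XLOC_045367 (r = 0.968), Mkk3/6 (0.956) and Plk2 XLOC_069080 (0.953), and for Wee1 they were Wee1_1 XLOC_045149 (0.968), Wee1_1 XLOC_031362 (0.924) and Dnahc8 (0.922). For Plk2 XLOC_069076 they were Hypp_842 (0.954), Hypp_293 (0.954) and Plk2 XLOC_045367 (0.952). For Frk they were Solh-2 (0.962), Dusp10 (0.952) and Zfand5b (0.950), and for Rbbp6L Hypp_616 (0.953), Vps37ha (0.925) and Pi4kb (0.925). Mkk3/6 carries the name of an activating kinase of p38, and Dusp10 that of a phosphatase of p38 and JNK. Over the 9 group means the nearest named loci were largely others. For Plk2 XLOC_045382 they were Plk2 XLOC_045367 (r = 0.995), Rfp19a (0.991) and Fadd (0.991), for Wee1 Igf_12 (0.991), Wee1_1 XLOC_045149 (0.985) and Svlnph (0.983), and for Rbbp6L Nek10 (0.993), Spop (0.990) and Birc6 (0.988). Plk2 XLOC_069076 had Srcr18 (0.991), Smurf (0.990) and Jnk (0.988) by group means. Frk had Dusp10 (0.995), Mapk15 (0.992) and Racl1 (0.991), so Dusp10 was near Frk by both measures. Igf_12 had an r of 0.165 with Wee1 over the 18 libraries.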

How the data were processed

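RNA from pools of larvae or fragments was sequenced in 18 libraries and grouped by sample title. The authors trimmed the reads with Trimmomatic 0.32, per the methods of the paper. Per the labels, they used TopHat2 2.0.12 for mapping to P. miniata v1.0 and Cufflinks 2.2.1 for building loci. They deposited the HTSeq 0.6.1p1 counts of uniquely mapping reads per locus, without normalization. Whether reads were counted by strand is not given in the sources used here. Columns with the authors' own log2 fold changes were not used, nor was any value of theirs. Reads on no locus (2.37 to 3.65%) and ambiguous reads (6.12 to 8.74%) were left out.

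Tests covered loci above 3 CPM in 2 or more libraries and used edgeR 4.0.16 in R 4.3.3: TMM factors, 1 quasi-likelihood fit of 18 libraries with 9 groups plus a replicate block, and Benjamini-Hochberg adjustment over all tested loci. A call is an adjusted p under 0.05. Standard errors were taken from the log2 fold change and its F statistic. DESeq2 1.42.0 gave an alternative test, and Python 3.11.15, pandas 2.3.3, numpy 2.4.6 and matplotlib 3.10.9 the summaries. With 2 libraries a group, precision rests on the spread shared over groups.

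Equal replicate numbers paired the samples. Deviations of same-numbered libraries correlated at 0.742 to 0.916 within a time point (9 of 9 pairs over 0.1) and at 0.179 to 0.675 between time points (27 of 27). The common dispersion was 0.146 with the block and 0.0475 with a block nested in time points.

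The members, lists and tests were chosen with earlier results of these data known. A test of the members between fragments at 3 hpb had been planned, but these libraries chose them, so those values are given without a p. The lists were matched by gene name, and 4 stems (Myt1, Cdh1, P21, Pp2a) were removed after the names had been read. Named list loci are those called against controls, at most 4 a list in order of p, and for each member the 3 named loci with the highest r. The fit was tested on simulated data. Alternatives were no block, the block nested in time points, DESeq2, its size factors, library size alone, no filter, a fit per time point, each library left out and, added after the data had been examined, summed counts of 1 gene prediction.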

Additional observations from a re-analysis of the deposited data

Results flagged for a closer look

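For 4 of the 5 loci, both replicates of a fragment lay above their controls at 3 hpb and both lay below them at a later time. The first part of this was fixed by the choice of the loci, and 4 later comparisons were looked at for each. Of all loci above their controls in both anterior replicates at 3 hpb, 11.4% lay below them in both at 3 dpb and 16.9% at 6 dpb, and in posterior fragments 29.1% and 31.7%. Each such difference between time points was not tested for these loci, since the 3 hpb values chose them. In anterior fragments this held for Wee1 at 3 dpb (log2 fold change -0.66, replicates -0.24 and -1.13) and for Frk at 3 dpb (-0.11) and 6 dpb (-0.25). In posterior fragments it held for Plk2 XLOC_069076 at 3 dpb (-0.0065) and 6 dpb (-0.20), for Frk at 6 dpb (-0.41, replicates -0.27 and -0.53) and for Rbbp6L at 6 dpb (-0.42, replicates -0.49 and -0.34). None of these later values passed an adjusted p of 0.05 with edgeR, and several are smaller than their standard errors.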

How the results depend on the processing

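Across 26 alternatives (8 choices of processing and 18 fits that each left out 1 library), 0 of the 45 tests of members gave a call. The lowest adjusted p was 0.0793, for Rbbp6L between anterior and posterior fragments at 6 dpb with edgeR and a replicate block nested in time points. Of 1542 alternative values, 1446 kept their direction with a small move, 54 changed direction and 42 kept it with a larger move. A change of direction was counted whatever its size, as for Plk2 XLOC_069076 in posterior fragments at 3 dpb (-0.0065 to 0.0079 with DESeq2). The cause of a change was not tested. At 11 to 97 counts a library, Wee1 is limited by depth at 3 and 6 dpb.

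Without the replicate block, Wee1 in controls from 3 to 6 dpb was -0.25 (0.19 with it) and Frk 0.010, and with the block nested in time points Wee1 was -1.17 there and -0.45 in posterior fragments. No call of a member depended on the block. For Plk2 XLOC_069076 in posterior fragments at 3 dpb, DESeq2 and its size factors gave 0.0079 and a fit per time point 0.0026, and for Wee1 DESeq2 gave -0.0089 and library size alone -0.084. From 3 to 6 dpb in posterior fragments, library size alone gave 0.11 and summed predictions 0.028 for Plk2 XLOC_045382, and summed predictions -0.046 for Wee1. Without a filter, Frk in controls was 0.019.

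Leaving out 1 library at a time, Wee1 ranged from -0.47 to 0.31 (posterior, 3 dpb), -2.43 to 0.87 (anterior, 6 dpb), -0.72 to 2.58 (posterior, 6 dpb), -0.13 to 1.42 (between fragments, 3 hpb), and from 3 to 6 dpb -1.97 to 1.32 (controls), -0.74 to 0.047 (anterior) and -0.19 to 1.18 (posterior). Plk2 XLOC_045382 ranged from -0.071 to 0.33 (anterior, 3 dpb), -0.10 to 0.50 and -0.59 to 0.19 (anterior and posterior, 6 dpb), -0.26 to 1.26 and -0.17 to 0.23 (between fragments, 3 hpb and 3 dpb), and from 3 to 6 dpb -0.030 to 0.58 (anterior) and -0.48 to 0.31 (posterior). Plk2 XLOC_069076 ranged from -0.15 to 0.15 (posterior, 3 dpb), -0.12 to 0.71 and -0.71 to 0.28 (anterior and posterior, 6 dpb) and -0.28 to 1.59 (between fragments, 3 hpb). Frk ranged from -0.13 to 0.050 (posterior, 3 dpb), -0.16 to 0.018 and -0.067 to 0.36 (between fragments, 3 and 6 dpb), -0.14 to 0.13 (controls, 3 to 6 dpb) and -0.37 to 0.064 (anterior, 3 to 6 dpb), and Rbbp6L from -0.13 to 0.32 (posterior, 3 dpb) and -0.0062 to 0.35 (anterior, 6 dpb).

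Over all loci, edgeR called 2248 in anterior fragments at 3 hpb, 610 without the replicate block and 8560 with the block nested in time points. In posterior fragments these were 21, 0 and 1363.
The counts over all alternatives that keep every library were 488 to 1631 (718 as reported) in anterior and 0 to 222 (0) in posterior fragments at 3 dpb, 487 to 1193 (697) and 0 to 1399 (2) at 6 dpb, 997 to 3809 (1682), 740 to 3450 (1141) and 628 to 4106 (1377) between fragments at 3 hpb, 3 dpb and 6 dpb, and from 3 to 6 dpb 2 to 2266 (19) in controls, 3 to 2156 (58) in anterior and 2 to 2236 (38) in posterior fragments.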
